A study of Rhodotorula toruloides with 9 samples.

Results

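Among the gene models of the oleaginous basidiomycete yeast Rhodotorula toruloides IFO0880, 256 of the 8486 that carry a protein number had an FPKM below 0.5 in every one of 9 RNA-seq libraries from cultures on d-galacturonic acid (d-galUA), d-glucose (d-glc) or glycerol. They made up 3.02% of the numbered genes and are called silent genes here. FPKM is the number of mapped reads per kilobase of gene model and per M mapped reads of the library (M, mega). The measured values themselves chose these genes, so their low FPKM is a description and was not tested. The tables hold 8578 gene models in all, and the other 92 carry a CAND identifier in place of a protein number. None of these 92 entered the selection, and 0 of them lay below 0.5 in every library, the lowest maximum being 0.594.

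The libraries are labelled as 3 from d-galUA, 4 from d-glc and 2 from glycerol, each carbon source having been supplied in liquid yeast nitrogen base medium. All groups share the strain IFO 0880, and the labels name no deletion or other treatment. Sampling was in log phase by the labels and at the onset of stationary phase by the study's methods. Messenger RNA was selected on beads and sequenced as 50-bp reads, so a transcript that the beads do not capture would not be seen. The study's methods describe triplicate cultures on each carbon source, grown from a shared starter culture. The numbers of libraries labelled d-glc and glycerol depart from this, and the labels do not tie libraries to cultures, so p-values measure only the spread between these libraries. In bulk RNA, expression in few cells and little RNA in every cell cannot be told apart.

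A fungal genome holds many genes that a culture on a single simple carbon source does not need, such as those for mating, for filamentous growth or for other nutrients. Gene prediction also yields models for repeated elements and for short open reading frames whose transcription was never observed. A gene that lies at a very low level in every condition can belong to any of these classes, and the tables carry no protein names that would assign it to one.

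Depth, computed from coverage and FPKM, was 25.8 to 51.9 M mapped reads per library, with a median of 35.2. The library labelled d-glc replicate 4 stood apart from its label. Across genes, its log2(FPKM + 1) had a Pearson correlation of 0.987 to 0.988 with the glycerol libraries, of 0.903 to 0.907 with the d-galUA libraries and of 0.876 to 0.878 with the other d-glc libraries. The lowest correlation within the other libraries of a group was 0.978. The selection used all 9 libraries whatever their label, and leaving this library out would have given 264 silent genes. Its values are given apart, and it was left out of the main test between carbon sources.

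Many of the silent genes had no signal at all. In all 9 libraries, 99 of the 256 were listed at 0, which is 38.7% of the silent genes and 1.17% of the numbered genes. Without d-glc replicate 3, the deepest library, 108 genes were listed at 0 throughout, and 101 to 106 without any one of the others. The remaining 157 were above 0 in at least 1 library. Of these, 28 were above 0 in 1 library, 24 in 2, 20 in 3, 14 in 4, 17 in 5, 15 in 6, 13 in 7, 7 in 8 and 19 in all 9. The genes between the extremes thus outnumbered those seen in every library.

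**Figure D1:**
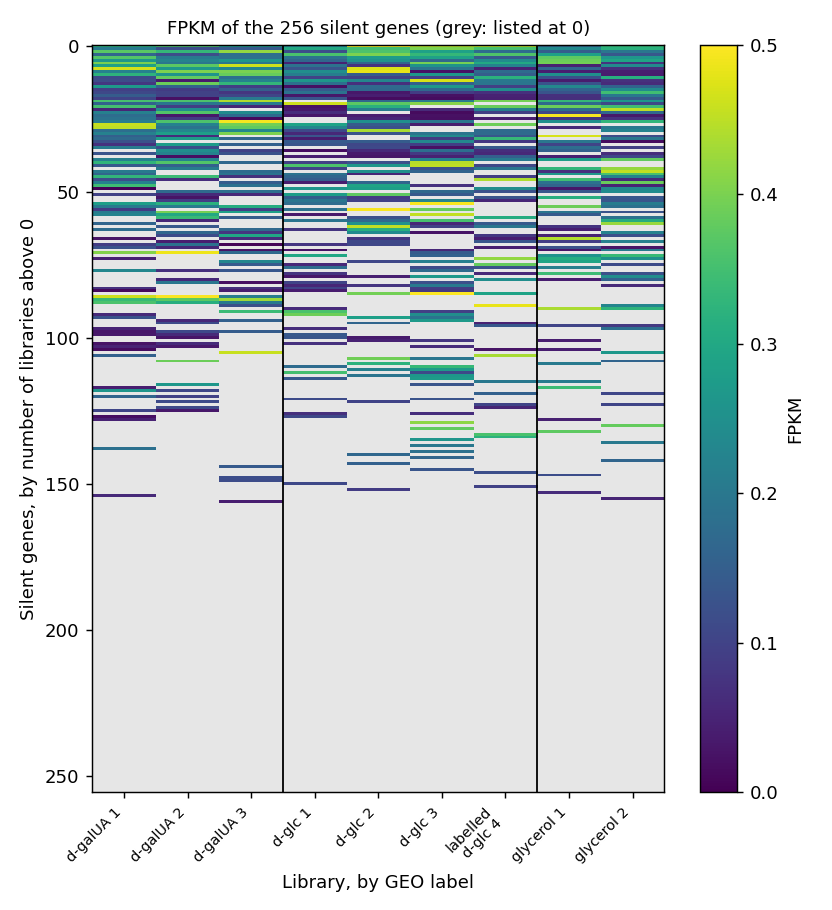
FPKM of the 256 silent genes (rows, ordered by the number of libraries above 0) in each of the 9 libraries (columns, by label), with colour from 0 to 0.5 FPKM and grey for values listed at 0. The 19 genes above 0 in all 9 libraries form a narrow band at the top, and the 99 at 0 throughout fill the grey rows at the bottom.

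The maximum FPKM of the 157 genes was below 0.1 in 13, from 0.1 to 0.2 in 34, from 0.2 to 0.3 in 32, from 0.3 to 0.4 in 39 and from 0.4 to 0.5 in 39. Its median was 0.296 and its lowest value 0.0400. The genes filled the range up to the threshold without a gap. Among the 19 genes above 0 in all 9 libraries, the median FPKM over the libraries ranged from 0.0665 to 0.333. RTO4_15031, the highest of these 19, had an FPKM of 0.324, 0.358 and 0.273 on d-galUA, of 0.216, 0.496 and 0.445 on d-glc and of 0.165 and 0.333 on glycerol, and of 0.447 in the library labelled d-glc replicate 4. Its groups overlapped.

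These values rest on few reads. An upper estimate of the reads on a gene was taken as coverage times the span of the gene model, introns included, over the read length. By this estimate the 256 genes together held 6432 of 322 M mapped reads. The median of the 157 genes above 0 was 22.6 reads over all 9 libraries together, the lowest was 1.00 and the highest 253. For a gene of the median span, 3 reads correspond to an FPKM of at least 0.0524 in the deepest library and of at least 0.105 in the shallowest. An FPKM of 0.5 corresponds to at most 28.6 and 14.2 reads, respectively. A gene listed at 0 may therefore still have a transcript below these levels, and such limits cover counting error only.

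A value of 0 can also be a failed estimate. Among the numbered genes that are not silent, 423 were listed at 0 in at least 1 library. In 19 of them another library of the same carbon source had an FPKM of 10 or more. The number of silent genes above 0 was 83, 81 and 71 in the d-galUA libraries, 75, 72 and 86 in d-glc replicates 1 to 3, and 71 and 77 in the glycerol libraries. For the library labelled d-glc replicate 4 it was 69. The lowest and the highest of these counts came from the shallowest and the deepest library. Whether depth has a part in these counts was not tested.

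The threshold fell within a continuous range of values. Just inside it, RTO4_14389 was listed at 0 on d-galUA, on glycerol and in d-glc replicate 1, and had an FPKM of 0.394 and 0.4997 in d-glc replicates 2 and 3 and of 0.289 in the library labelled d-glc replicate 4. RTO4_10723 had 0.496 in glycerol replicate 1, against at most 0.178 in any other library. RTO4_14444, RTO4_15031 and RTO4_9062 had maxima of 0.496, 0.496 and 0.495. Just outside it lay RTO4_10466, with a maximum of 0.503, RTO4_9762 with 0.507, RTO4_10029 with 0.508, RTO4_14017 with 0.511 and RTO4_14678 with 0.515. RTO4_9762 was listed at 0 in 8 of the libraries, its single value being that of d-galUA replicate 2.

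The silent genes had short gene models. Their median span from start to end was 1103.5 bp, with quartiles of 811.75 and 1562.25, against 1783 bp over all numbered genes, with quartiles of 1245 and 2595. Those listed at 0 throughout had a median of 1066 bp and those above 0 a median of 1109 bp. Below 500 bp lay 20 silent genes, or 7.81%, against 1.96% of the numbered genes. Above 3000 bp lay 5, or 1.95%, against 17.5% of the numbered genes. These shares were not tested, and the span includes introns.

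When all numbered genes were divided by span into deciles, 79 silent genes fell in the shortest decile and 57 in the next, together 53.1% of the 256. The counts in the following deciles were 27, 29, 23, 18, 9, 7, 6 and 1. The share of silent genes among the genes of a decile thus went from 9.28% in the shortest to 0.118% in the longest. Of the 99 genes at 0 throughout, 39 lay in the shortest decile. At a given transcript level, a short gene collects fewer reads, so a value of 0 says less of a short gene than of a long one. The part of read number in these shares was not tested.

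**Figure D2:**
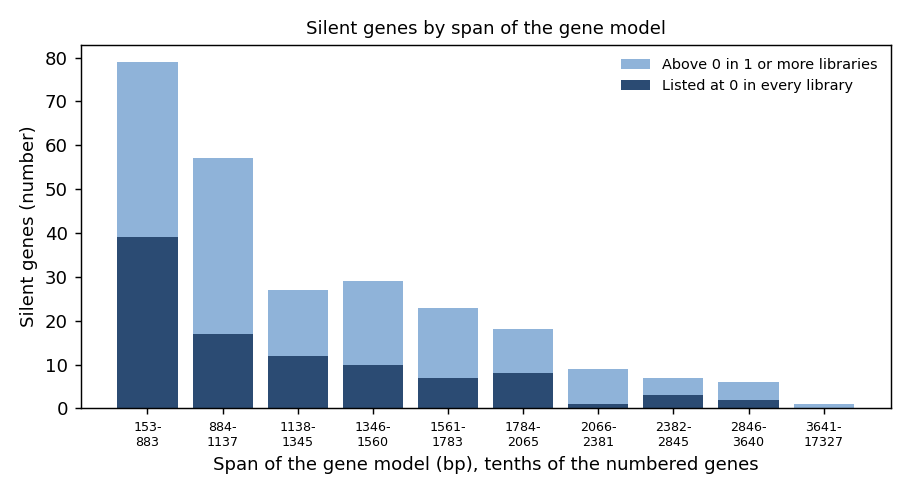
Number of silent genes (vertical axis) in each decile of the numbered genes ordered by span in bp (horizontal axis), with the dark part of each bar for genes listed at 0 in all 9 libraries and the light part for the others. The counts go from 79 in the shortest decile to 1 in the longest.

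The 5 longest silent genes were RTO4_11666 with 4055 bp, RTO4_8863 with 3441 bp, RTO4_14440 with 3195 bp, RTO4_11404 with 3167 bp and RTO4_11792 with 3152 bp. RTO4_8863, on the minus strand of scaffold 1, and RTO4_11792, on the plus strand of scaffold 18, were listed at 0 in all 9 libraries. The next longest genes at 0 throughout were RTO4_15930 with 2747 bp on scaffold 8, and the neighbours RTO4_10597 and RTO4_10598 with 2650 and 2424 bp on the plus strand of scaffold 13. For these genes a 0 sets a lower limit on FPKM than it does for the short ones. RTO4_11404 had an FPKM of 0.181, 0.229 and 0.231 on d-galUA, of 0.110, 0.435 and 0 on d-glc, of 0 and 0.221 on glycerol, and of 0.172 in the library labelled d-glc replicate 4. It was detected on every carbon source, and its groups overlapped.

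The 5 shortest were RTO4_16767 with 251 bp, RTO4_14444 with 258 bp, RTO4_13271 with 265 bp, RTO4_13631 with 315 bp and RTO4_14529 with 368 bp. RTO4_13271 and RTO4_13631 were listed at 0 throughout. RTO4_16767 had an FPKM of 0.340 in d-galUA replicate 3, of 0.359 in d-glc replicate 1 and of 0.0949 in d-glc replicate 3, and was listed at 0 in the other libraries. By the upper estimate these values came from 7.72 reads in all. RTO4_14529 was above 0 in all 9 libraries, from 0.0616 to 0.388. It lies wholly inside RTO4_14528, whose FPKM reached 34.8, and reads of the pair cannot be told apart without the strand.

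Silent genes lay both near the ends of the scaffolds and far from them. Scaffold lengths were not used here, so the distance was taken to the outermost end of a gene model on the same scaffold. Within 20 kb of it lay 6 silent genes, or 2.34%, against 3.70% of the numbered genes. Within 50 kb there were 17, or 6.64%, against 8.93%, and within 100 kb 52, or 20.3%, against 17.6%. The median distance was 273590 bp for the silent genes and 296388 bp for the numbered genes. These shares are descriptions without a test.

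The genes nearest to such an end, on scaffolds with at least 20 gene models, were RTO4_10436 and RTO4_10435 on scaffold 12. RTO4_10436 is the outermost gene model itself, and RTO4_10435 lies 448 bp from the end. RTO4_10070 lay 7327 bp from the end of scaffold 11, RTO4_14476 10187 bp from that of scaffold 6 and RTO4_11049 12424 bp from that of scaffold 14. RTO4_10436 was above 0 in d-galUA replicate 3, at 0.458, and in glycerol replicate 2, at 0.265, and RTO4_14476 in glycerol replicate 2 alone, at 0.201. RTO4_10070 reached 0.207 in d-glc replicate 3.

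Silent genes were found on 19 of the 29 scaffolds, 11 of which hold only 39 gene models in all. Scaffold 5 held 40 silent genes among 712 numbered genes, or 5.62%. Scaffold 12 held 18 of 363, or 4.96%, and scaffold 10 held 4 of 396, or 1.01%. In windows of 100 kb, 88 of 215 windows held no silent gene and 4 held 5 or more. The window of scaffold 1 from 1100000 to 1199999 held 9 silent genes among 31 numbered genes, and 8 of them were listed at 0 throughout. On scaffold 5, the window from 1400000 to 1499999 held 9 of 48 and the adjoining one held 6 of 42. The fourth, on scaffold 11 from 700000 to 799999, held 5 of 43.

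**Figure D3:**
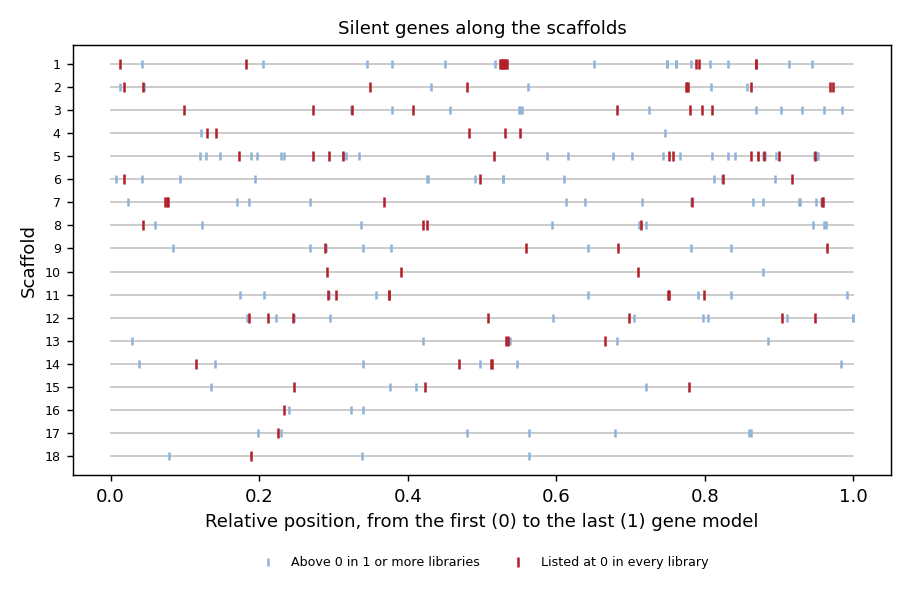
Silent genes (ticks) along each of the 18 scaffolds with at least 20 gene models (rows), by relative position from the first to the last gene model (horizontal axis, no unit), in red where listed at 0 in all 9 libraries and in light blue otherwise. Silent genes lie along the whole length of the scaffolds, with dense groups on scaffold 1 and scaffold 5.

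Most silent genes stood alone, and 74 of the 256, or 28.9%, lay next to another silent gene in the order of gene models. They formed 31 runs: 24 pairs, 5 runs of 3, 1 run of 5 and 1 run of 6. In 18 of the 24 pairs both genes lay on the same strand. Both genes were at 0 throughout in 5 pairs, 1 of them in 12 pairs and neither in 7 pairs. Among the genes at 0 throughout, 25 lay in 10 runs of such genes.

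The run with the most genes, RTO4_14439 to RTO4_14444, holds 6 and covers 9945 bp of scaffold 5 from 1576967 to 1586911. RTO4_14439 is on the plus strand and the other 5 genes are on the minus strand. The run ends 79461 bp from the outermost gene model, and only RTO4_14441 was listed at 0 throughout. On the d-galUA libraries, RTO4_14439 had 0, 0.0585 and 0.153, RTO4_14440 had 0.0269, 0.0607 and 0, and RTO4_14443 had 0.161, 0.0991 and 0. RTO4_14443 and RTO4_14444 were above 0 on d-galUA alone. RTO4_14442 had its highest value, 0.182, in glycerol replicate 2. The genes that flank the run were expressed. Over the 8 libraries other than that labelled d-glc replicate 4, the mean FPKM was 34.8 for RTO4_14438 and 10.7 for RTO4_14445.

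The run of 5 genes and a run of 3 lie close together on scaffold 1 and belong to a single repeated stretch. RTO4_8862 to RTO4_8866 are 5 genes from 1171783 to 1183203, and RTO4_8857 to RTO4_8859 are 3 genes from 1162122 to 1167980. All 8 genes were listed at 0 in all 9 libraries. They lie among 11 gene models, RTO4_8856 to RTO4_8866, that cover 23847 bp. The spans of 8 of the 11 models recur on the same strand. RTO4_8856, RTO4_8861 and RTO4_8865 have spans of 1005, 1004 and 1003 bp, RTO4_8857, RTO4_8862 and RTO4_8866 of 1767, 1766 and 1765 bp, and RTO4_8860 and RTO4_8864 of 873 and 872 bp. Their starts are spaced by 9662 and 9657 bp, by 9661 and 9656 bp, and by 9658 bp. Over all gene models, 13 matches of this kind were found between a pair of neighbouring models and another pair. Spans had to lie within 3 bp of each other and spacings within 10 bp, and a pair could enter several matches. All 4 matches with a silent gene were those of this stretch.

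Within this stretch, models of nearly equal span had very different values. RTO4_8856 had an FPKM of 9.96, 10.5 and 9.70 on d-galUA, of 10.1, 15.8 and 12.4 on d-glc, and of 19.3 and 18.9 on glycerol. RTO4_8861 had 0.977 to 0.996 times the FPKM of RTO4_8856 in each of the 9 libraries, while RTO4_8865, of nearly the same span, was at 0. RTO4_8860 ranged from 21.9 to 35.8 over the libraries, and its counterpart RTO4_8864 was at 0. In the library labelled d-glc replicate 4, RTO4_8856 had 22.6 and RTO4_8861 had 22.4. How reads that fit several copies were assigned is not given in the sources used here. For RTO4_8864 and RTO4_8865, silence and the assignment of reads to the expressed model of like span cannot be told apart. For the other 6 silent genes no model of like span within the stretch was above 0. Copies elsewhere were not searched for by sequence, and the assignment of reads was not tested for these 6 genes either. RTO4_8857, RTO4_8862 and RTO4_8866 are counterparts of each other, and RTO4_8858, RTO4_8859 and RTO4_8863 have no counterpart of like span. By position, RTO4_8863 lies between RTO4_8862 and RTO4_8864, as RTO4_8858 and RTO4_8859 lie between RTO4_8857 and RTO4_8860.

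**Figure D4:**
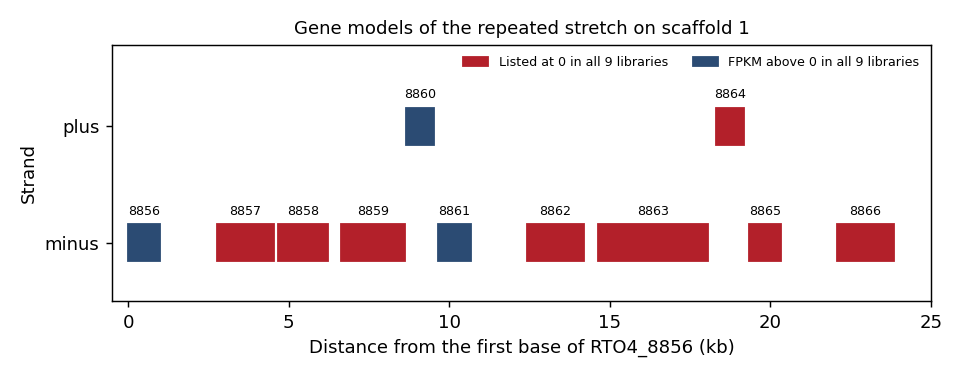
Gene models RTO4_8856 to RTO4_8866 on scaffold 1, drawn to scale by distance in kb from the first base of RTO4_8856 and by strand, in red where listed at 0 in all 9 libraries and in blue where above 0 in all 9. RTO4_8856, RTO4_8860 and RTO4_8861 are above 0, and the 8 silent genes, some of nearly the same span, are at 0.

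A second repeated stretch, on scaffold 8, holds 2 silent genes, RTO4_15930 and RTO4_15933, both listed at 0 throughout. It was singled out after its values were seen. RTO4_15932 and RTO4_15938 both have a span of 2158 bp, start 14433 bp apart and had the same FPKM in all 9 libraries, for example 10.4 in d-galUA replicate 1. Among gene models with a mean FPKM of at least 1 over the 8 libraries other than that labelled d-glc replicate 4, 4 pairs had FPKM equal within 0.1% in every library. RTO4_15930 starts 14430 bp before RTO4_15936, which had an FPKM of 3.67 to 31.6. The span of RTO4_15930 is 2747 bp and that of RTO4_15936 is 2581 bp. RTO4_15933 lies on the plus strand between RTO4_15932 and RTO4_15934 and has a span of 592 bp.

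The other runs of 3 were RTO4_12539 to RTO4_12541 on scaffold 2, RTO4_14387 to RTO4_14389 on scaffold 5, RTO4_15665 to RTO4_15667 on scaffold 7 and RTO4_10597 to RTO4_10599 on scaffold 13. All 3 genes of the first, with spans of 1937, 1780 and 1324 bp, were listed at 0 in all 9 libraries. Their neighbours RTO4_12538 and RTO4_12542 had a mean FPKM of 18.9 and 44.1 over the 8 libraries other than that labelled d-glc replicate 4. In the runs on scaffolds 7 and 13, 2 of the 3 genes were at 0 throughout, and the highest FPKM in them was 0.0521 and 0.0796. These runs were outside the rule for named genes and were chosen after their values were seen.

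Silent genes mostly sat between expressed genes. At 425 flanking positions the gene model was not silent, and a model with a silent gene on either side was counted at each. The mean FPKM over the 8 libraries other than that labelled d-glc replicate 4 had a median of 19.2 at these positions, with quartiles of 4.00 and 47.8. For the numbered genes that are not silent the median was 22.8, with quartiles of 9.32 and 50.3. At 26.1% of the flanking positions the mean FPKM was below 5, against 16.3% of those numbered genes. The median gap to a neighbour was 221 bp for silent genes and 134 bp for the others. These are descriptions without a test. Both strands carried silent genes, 136 on the minus strand and 120 on the plus strand.

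Overlap with another gene model was found for 51 silent genes, or 19.9%, against 24.3% of the numbered genes. In 21 the overlap was on the same strand only, in 24 on the opposite strand only and in 6 on both. Among the genes at 0 throughout 13 overlapped another model, or 13.1%, and among those above 0 there were 38, or 24.2%. The partner had an FPKM of 10 or more in at least 1 library for 27 of the 51. Low values of the overlapping genes may hold reads of the partner, and this was not tested. Besides RTO4_14529, RTO4_8728 lies wholly inside another model, RTO4_8729, and the maxima of the pair were 0.167 and 1.60.

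Some silent genes lie beside genes with a large response to d-galUA. RTO4_13271, on the minus strand and at 0 throughout, lies 11 bp from RTO4_13270 on the plus strand, and the ends of these genes face each other. RTO4_13270, a predicted transcription factor gene, had an FPKM of 96.2, 92.7 and 89.1 on d-galUA and of 8.18 to 13.4 in the other libraries. RTO4_9773, a gene chosen after its values were seen, lies 1079 bp from RTO4_9774, the homolog of the aldehyde reductase gene GaaD of the fungal d-galUA pathway, whose FPKM on d-galUA was 3639 to 4251. RTO4_9773 had an FPKM of 0.219, 0.282 and 0.401 on d-galUA, of 0.0579, 0.130 and 0.191 on d-glc and of 0 and 0 on glycerol. It had 0.173 in the library labelled d-glc replicate 4. Its d-galUA libraries were above all others. On d-galUA, RTO4_9773 was higher than on glycerol by a log2 difference of 0.38 (SE 0.13). Its difference from d-glc was smaller, 0.21 (SE 0.11). The F test across carbon sources did not pass the threshold (limma adjusted p = 0.0667). Because the gene was picked by its values, both differences are given as a description.

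By carbon source, 114 silent genes were above 0 in at least 1 d-galUA library, 115 in at least 1 of d-glc replicates 1 to 3 and 94 in at least 1 glycerol library. In all libraries of the group, they were 45, 36 and 54, respectively, and glycerol has 1 library fewer. With the library labelled d-glc replicate 4 not counted, 63 genes were above 0 on all 3 carbon sources and 44 on exactly 2 of them. Counted in this way, 15 were seen on d-galUA alone, 20 on d-glc alone and 11 on glycerol alone. Some of these were also above 0 in the library not counted, such as RTO4_15724, with 0.156 in d-galUA replicate 1 and 0.434 in that library. A further 4 silent genes had their single value above 0 in the library labelled d-glc replicate 4. Given the read numbers above, being listed at 0 on a carbon source does not show a difference from the others.

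limma was fitted to log2(FPKM + 1) of 8 libraries, without the library labelled d-glc replicate 4, over the 8475 gene models above 0 in at least 1 of them, and 153 silent genes were among these. The F test across the 3 carbon sources called 10 of the 153 at a Benjamini-Hochberg adjusted p below 0.05, or 6.54%, where it called 64.7% of all gene models tested. Since the selection required low values on every carbon source, nothing is read from this difference. At an unadjusted p below 0.05 there were 13 of the 153. The share over all gene models at this threshold was not computed, so nothing is read from this count. On this scale a gene that goes from 0 to an FPKM of 0.5 changes little, so differences on it are small, and fold changes are understated. The count fell to 2 without d-galUA replicate 1 and to 2 without d-galUA replicate 2. It was 5 without d-galUA replicate 3 or d-glc replicate 3, and 6 without d-glc replicate 2 or glycerol replicate 1. With all 9 libraries grouped as labelled it was 4, and 1725 of 8479 gene models were called.

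Between d-galUA and glycerol, limma called 6 silent genes higher and 2 lower on d-galUA, against 23.1% and 20.5% of all gene models. Against d-glc, 7 were higher and 1 lower on d-galUA, where the background was 24.5% and 25.2%. Against d-glc, 3 were higher on glycerol and 2 were lower, with a background of 22.5% and 24.7%. These counts changed when single libraries were left out. Those higher on d-galUA than on glycerol were 1 without d-galUA replicate 1, glycerol replicate 1 or glycerol replicate 2, and 2 without d-galUA replicate 2, and those lower were 5 without glycerol replicate 2 and 1 without d-galUA replicate 1, d-galUA replicate 3 or d-glc replicate 3. Against d-glc, those higher on d-galUA were 2 without d-galUA replicate 2, 3 without d-galUA replicate 1 and 4 without d-galUA replicate 3, d-glc replicate 1 or d-glc replicate 2, and the gene lower was lost without any of the d-galUA libraries or d-glc replicate 3, while 3 were lower without d-glc replicate 1 and 2 without d-glc replicate 2. Those higher on glycerol than on d-glc were 6 without glycerol replicate 2 and 1 without any other library, and those lower were 0 without either glycerol library and 1 without d-glc replicate 3. The comparisons share libraries. Among the 8 libraries of the fit, every d-galUA library was above every other library for 11 silent genes, or 7.19%, against 17.7% of all gene models. This order was found on d-glc for 6 genes, or 3.92%, against 18.6%, and on glycerol for 8, or 5.23%, against 18.4%. The library labelled d-glc replicate 4 was not counted here and does not keep the order in all of these genes. In RTO4_13701, among the 11, it had 0.396, against 0.355 and 0.361 in d-galUA replicates 1 and 2.

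Among the 10 genes, 5 had their highest mean on d-galUA, and any adjusted p given with the 10 genes is that of the F test. The test used the same FPKM values as the selection, so its results for single genes are given as descriptions. RTO4_11049, a 934-bp gene on scaffold 14, had an FPKM of 0.336, 0.374 and 0.426 on d-galUA and was listed at 0 in all 6 others. The groups did not overlap. Its log2 difference on d-galUA was 0.46 (SE 0.12) against glycerol. All its reads, 37.5 by the upper estimate, came from the 3 d-galUA libraries.

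RTO4_14444, the last gene of the run on scaffold 5, had 0.462, 0.496 and 0.211 on d-galUA and was at 0 in all 6 others. Its log2 difference against glycerol was 0.47 (SE 0.14), and by the upper estimate it rested on 10.6 reads. RTO4_11666, the longest silent gene, had 0.359, 0.313 and 0.206 on d-galUA and was likewise at 0 elsewhere, with a log2 difference of 0.37 (SE 0.12). As the longest model it rested on more reads, 125 by the upper estimate. These 3 genes were the ones of the 10 seen on d-galUA alone. They entered the test only through the libraries in which they are high, so no p is given for them.

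RTO4_11735 had 0.407, 0.487 and 0.172 on d-galUA, 0.143 in d-glc replicate 3 and 0 in the remaining libraries, with a log2 difference of 0.43 (SE 0.15, adjusted p = 0.0417 in limma) against glycerol. RTO4_10435, near the end of scaffold 12, had 0.207, 0.395 and 0.281 on d-galUA, 0.193 and 0.130 on glycerol, and 0 in the 4 libraries labelled d-glc. Its log2 difference on d-galUA against d-glc was 0.37 (SE 0.11, adjusted p = 0.0431 in limma). Each of these calls was lost in 9 of the 17 alternatives, the adjusted p reaching 0.158 and 0.130. The outermost gene beside RTO4_10435, RTO4_10436, was not called.

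On glycerol, RTO4_16337 had 0.437 and 0.324, against 0 in the d-galUA libraries and 0.0615, 0 and 0 in d-glc replicates 1 to 3. The d-galUA libraries were lower than the glycerol libraries by a log2 difference of -0.46 (SE 0.12, adjusted p = 0.0143 in limma, range over the 17 alternatives 0.000455 to 0.131). In the library labelled d-glc replicate 4 it was at 0. RTO4_14991 had 0.310 and 0.251 on glycerol, 0.0497, 0 and 0 on d-galUA, and 0 in d-glc replicates 1 to 3, with a log2 difference of 0.36 (SE 0.12, adjusted p = 0.0441 in limma) for glycerol against d-glc. In the library labelled d-glc replicate 4 it had 0.419, and its call was lost in 11 of the 17 alternatives, with an adjusted p of up to 0.296. That library was thus at the level of the d-glc libraries in RTO4_16337 and above the glycerol libraries in RTO4_14991.

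RTO4_11778 had 0.206, 0.209 and 0.308 on d-galUA and 0.387 and 0.185 on glycerol, and was at 0 in the 4 libraries labelled d-glc. The d-galUA and glycerol libraries overlapped, with a log2 difference of -0.05 (SE 0.13). For glycerol against d-glc the log2 difference was 0.36 (SE 0.13, adjusted p = 0.0485 in limma, range 0.00659 to 0.126).

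On d-glc, RTO4_9062 had 0.189, 0.495 and 0.382, against 0.0844, 0 and 0.0918 on d-galUA and 0 in the glycerol libraries. Glycerol was lower than d-glc by a log2 difference of -0.43 (SE 0.14, adjusted p = 0.0357 in limma, range 0.0114 to 0.233). RTO4_14380 had 0.360, 0.264 and 0.453 on d-glc, 0.138, 0.153 and 0 on d-galUA and 0 on glycerol, and the log2 difference was -0.44 (SE 0.13, adjusted p = 0.0326 in limma, range 0.00643 to 0.127). In the library labelled d-glc replicate 4, RTO4_9062 was at 0 and RTO4_14380 had 0.109, below each of the other d-glc libraries. The calls of RTO4_9062, RTO4_14380 and RTO4_11778 were lost in 10 of the 17 alternatives each.

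**Figure D5:**
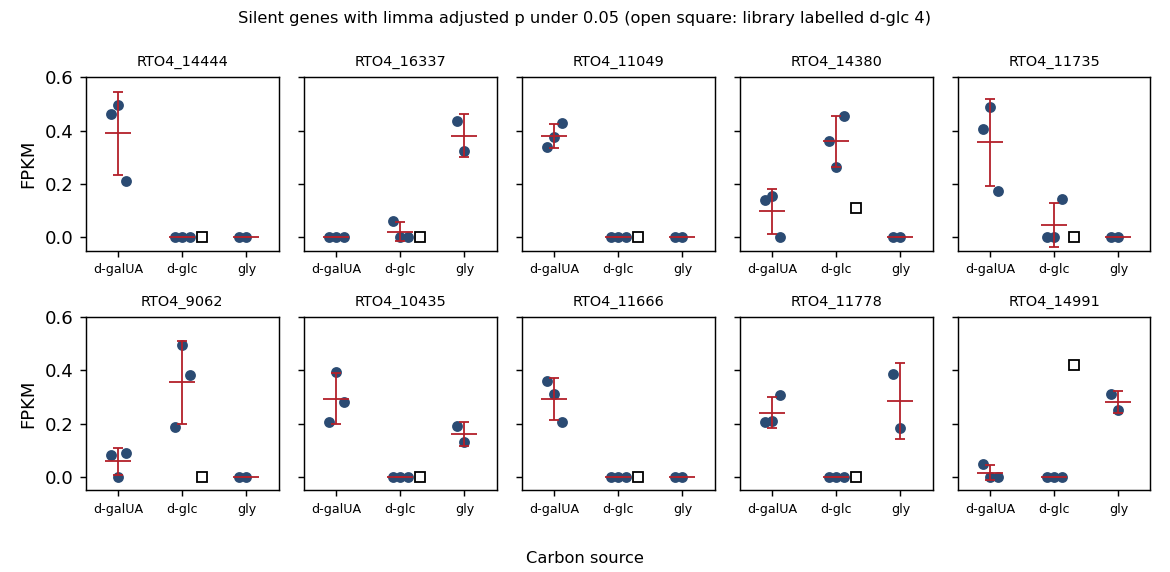
FPKM of the 10 silent genes called by limma, in each library, by carbon source (horizontal axis), with points for the 8 libraries tested, red bars for the group mean and SD (n = 3, 3 and 2) and an open square for the library labelled d-glc replicate 4. RTO4_11049, RTO4_14444 and RTO4_11666 are above 0 in the 3 d-galUA libraries alone, and RTO4_14991 has 0.419 in the library labelled d-glc replicate 4.

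No protein name or ortholog could be given to any silent gene. In the gene annotation that accompanies the study, of which 1999 genes were used here, 0 of the 256 were listed. The copy used was incomplete, so this 0 says nothing about the full annotation, in which any of the 256 may carry a note. The RefSeq annotation at hand is of another strain, and 0 of all 8578 gene models matched its identifiers, so it could name no gene of the table. The silent genes are therefore described by number, position and span alone.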

How the data were processed

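RNA-seq tables of 9 libraries of R. toruloides IFO0880 were used, with a gene abundance table for each library. The authors selected mRNA, sequenced it as 50-bp single-end reads, used HISAT2 2.1.0 for mapping and StringTie 1.3.3b for gene abundances, on the version 4 gene models. The authors scaled the deposited FPKM to the length of the gene model and to the M mapped reads (M, mega). TPM, as deposited, has a fixed sum per library, and the deposited coverage is the mean read depth over a gene. Strand setting and the treatment of reads that fit several genes are not given in the sources used here.

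Silent genes were numbered gene models with an FPKM below 0.5 in all 9 libraries. Gene span was taken from the start and end columns, and runs from the order of all gene models. Depth was computed from coverage and FPKM as mapped reads of 50 bp, and was 25.8 to 51.9 M per library. Differences between carbon sources were tested with limma 3.58.1 in R 4.3.3 on log2(FPKM + 1), a pseudocount of 1, with a trend of the variance on the mean and with p-values adjusted by Benjamini-Hochberg over all gene models above 0 in at least 1 of 8 libraries. The library labelled d-glc replicate 4 was left out of this fit because its values did not follow its label. The fit was tested on simulated data in which changes were placed only in genes far above the level of the silent genes. That simulation does not bear on the silent genes. Python 3.11.15, numpy 2.4.6, pandas 2.3.3, scipy 1.17.1 and matplotlib 3.10.9 were used for the rest.

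Genes named are the 5 with the highest maxima and the 5 just outside the threshold, the 5 longest and 5 shortest, the 5 longest at 0 throughout, those of the 3 runs with the most genes (ties by scaffold number and start), the 5 nearest to an outermost gene model end, and up to 10 that passed the F test. Other genes named were chosen after their values were seen. The silent genes, the lists and the tests were chosen with earlier results of these data known. Alternatives covered the FPKM threshold, TPM, the pseudocount, the genes tested, the trend, the grouping of the libraries, a replicate block and each library left out.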

Additional observations from a re-analysis of the deposited data

Results flagged for a closer look

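The 4 libraries labelled d-glc were searched for a value far from the other 3, with Dixon's criterion for 4 values. The search covered the named silent genes, depth, the number of silent genes above 0 and their summed FPKM, and 6 of 41 checks met the criterion. Chance meets this criterion in about 1 of 20 groups when values are continuous, and groups with many values at 0 do not meet that condition. All 6 were genes for which the other 3 libraries labelled d-glc were listed at 0, and there any value above 0 meets the criterion, whatever its size. RTO4_14440 had an FPKM of 0.0722 and RTO4_14442 one of 0.0646 in d-glc replicate 1, and RTO4_14439, of the same run on scaffold 5, had 0.269 in d-glc replicate 3. RTO4_16337 had 0.0615 in d-glc replicate 1. RTO4_11735 had 0.143 in d-glc replicate 3, the deepest library. RTO4_14991 had 0.419 in the library labelled d-glc replicate 4, above the 0.310 and 0.251 of the glycerol libraries.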

How the results depend on the processing

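The number of silent genes was 164 with a threshold of 0.25 and 433 with a threshold of 1. With TPM below 0.5 in place of FPKM it was 191, and with the mean FPKM below 0.5 in place of every library 471. It was 261 to 274 with each library left out in turn, and 101 to 108 genes were then at 0 throughout. At a threshold of 1 the median span was 1187 bp and there were 57 runs, and at 0.25 there were 17 runs. Within 50 kb of an outermost gene model there were 17 silent genes in place of 6 within 20 kb, and at a threshold of 0.25 there were 3 within 20 kb.

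The F test called 16 silent genes with a pseudocount of 0.1 and 3 with a pseudocount of 5, beside 5437 and 5489 of 8475 gene models. With all gene models tested it called 23 of the 256 silent genes and 5384 of 8578 gene models. With the 9 libraries as labelled it called 4 silent genes and 1725 of 8479 gene models, against 5481 of 8475 in the main fit. With the library labelled d-glc replicate 4 counted as glycerol it called 9 silent genes and 5895 of 8479 gene models. With each library left out it called 2 to 9 silent genes and 4712 to 5728 gene models. The comparisons between carbon sources gave 21 calls in all, 6 with a pseudocount of 5, 43 with all gene models tested, 9 as labelled and 8 to 20 with each library left out. The causes were not tested. For the 10 genes named, 103 of 170 values under the alternatives still passed the threshold, 67 did not and 0 changed direction.

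The replicate numbers were also used as a block. The F test then called 3 silent genes and 5173 of 8475 gene models, and the comparisons gave 8 calls of silent genes. Same-numbered libraries had correlations of their deviations from -0.137 to 0.170 and did not all exceed 0.1, so the labels' numbers were not taken to pair the libraries.

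Depth limits these results: at most 28.6 reads in a library lie behind an FPKM of 0.5 for a gene of the median span. A 0 can be a failed estimate. Overlapping models and repeated copies can share reads. Gene spans include introns, and scaffold ends are those of the outermost gene models.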
